A study of Rattus norvegicus with 8 samples.

Results

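Cells detect DNA lesions and remove them with a set of partly overlapping pathways, and 39 genes of those pathways were examined here in rat liver. The genes were taken by name: damage sensors and checkpoint kinases, the factors of each excision and recombination pathway, 3 Fanconi anaemia genes, the methyltransferase Mgmt and the translesion polymerase Polk. Of the 39 genes, 37 had at least 1 probe on the array, with 55 probes between them, while Msh6 and Ercc5 were not analysed here. A further 3 genes, Atr, Fancd2 and Fanci, were too dim for the test, so 34 of the 21719 genes tested were repair genes of this set.

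Male Wistar rats received butyrate-containing structured lipids (STL), at 1.65 g/kg body weight by daily gavage, or, as controls, maltodextrin at 3.0 g/kg, a dose of equal energy. Both groups, with 4 labelled rats each, went through the "resistant hepatocyte" protocol of liver carcinogenesis, which began 2 weeks after the first dose, and animals were killed at 8 weeks. Neither group was free of the carcinogenesis protocol, so every difference below is one between livers that had all gone through it. RNA of whole liver was labelled with Cy3 and read on 1-colour Agilent arrays, and what the livers looked like or how many lesions they held is not given in the labels.

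Ionising radiation, oxidation and alkylating chemicals leave different lesions, and each class has its own repair route. A double-strand break is bound by the Mre11-Rad50-Nbn complex, which activates the kinase Atm, and is then rejoined by end joining or, in cells that have copied their DNA, by homologous recombination. Damaged bases are cut out singly by glycosylases in base excision repair, bulky adducts are removed with a stretch of the strand in nucleotide excision repair, and O6-methylguanine is reversed directly by Mgmt. In hepatocytes, which rarely divide unless injured, genes used in S phase such as Brca1 and Rad54l are transcribed little, whereas the excision pathways are active in resting cells.

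Levels are given as log2 signal, scaled within an array so that 0 is the 75th percentile of its probes, and a level of 1 probe is not set against that of another. That percentile was a signal of 304 to 489 on the STL arrays and of 467 to 605 on the control arrays, and 54.2% to 62.9% of probes were well above background. The arrays of controls 1 and 2 differed from one another by 1.04 times the noise between spots, against at least 2.14 times for every other pair, so they were averaged and counted as 1 sample. This left 4 STL samples (rats 5 to 8) and 3 control samples (controls 1 and 2 together, control 3 and control 4). By the same noise measure, the other array nearest to controls 1 and 2 was STL 6, at 2.20 and 2.14 times. Control 3 lay further from them, at 3.31 and 3.28 times, and control 4 at 4.895 and 4.648 times. The 9 hepatocyte markers were all detected, with Alb, the plasma protein albumin, at 8.74 to 9.43 in STL livers and 8.34 to 8.70 in control livers. Differences are STL minus control on the log2 scale, tested with limma and adjusted over all 21719 genes. The p-values set a difference against the spread between these samples. That spread is moderated toward the spread of genes of similar signal, so SE and p do not follow from a gene's own SDs alone. In whole liver, fewer cells of a type and less RNA per cell cannot be told apart.

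No repair gene passed the test, and the 34 genes were spread on both sides of 0. In limma, 0 of 34 had an adjusted p under 0.05, against 0.0046% of all genes tested, which is 1 gene. At an unadjusted p under 0.05 there were 4 of 34 repair genes, or 11.8%, against 19% of all genes: Fanca was higher in STL livers, while Rad54l, Rad50 and Apex1 were lower. Without control 4 it was 20.6%, against 13.3% of all genes, and with the slide column as a block 23.5%, against 17.9%. In the fit with all samples the higher one stood against 11.6% of all genes on that side and the 3 lower ones against 7.4%. In 4 genes the STL and control samples did not overlap, with 1 higher (Fanca) and 3 lower (Rad54l, Nbn and Apex1), and the same held for 11.2% and 5.62% of all genes. By the sign of the difference, 15 were higher and 19 lower in STL livers.

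The differences ran from -1.10 (Rad54l) to 1.60 (Fanca), and 30 of 34 lay within 0.5 of 0. The median was -0.08, against 0.06 over all genes tested, and with normexp background correction it was 0.00034, against 0.12. Normexp was run with an added offset of 50, which draws the log2 differences of dim probes toward 0. The effect of the offset was not separated from that of the correction. For 29 of the 34 genes the 95% interval of the difference lay within 2-fold in either direction, as it did for 16427 of all 21719 genes. The median SD within groups was 0.20 for the repair genes and 0.24 for all genes. The extremes were spread over the livers: STL 5 was the highest of the 7 samples in 7 genes and the lowest in 8, while control 3 was the highest in 11 and the lowest in 3.

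**Figure D1:**
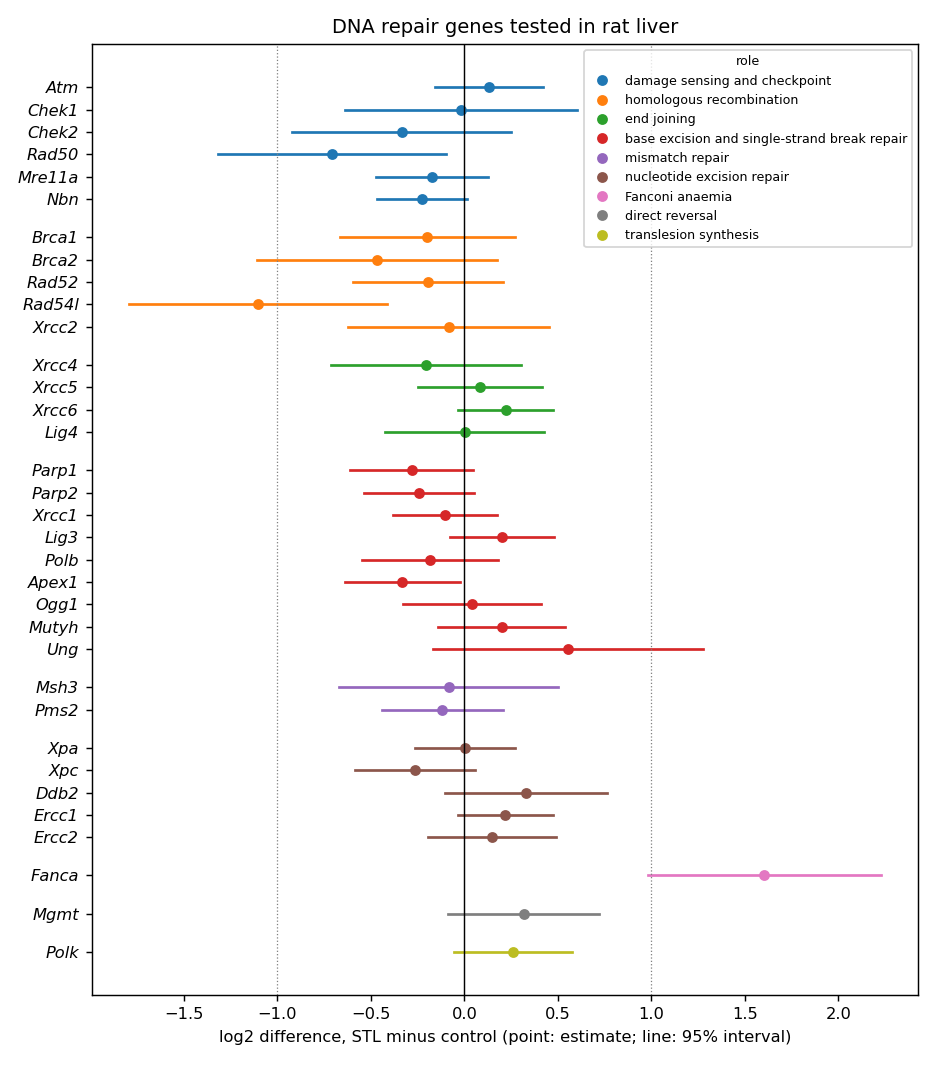
Log2 difference, STL minus control, of the 34 repair genes tested, ordered by role from top to bottom, with points for the estimate, lines for the 95% interval and dotted lines at a 2-fold difference. Most points lie within 0.5 of 0, Fanca stands at 1.60 on the right and Rad54l at -1.10 on the left.

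Among the damage sensors and checkpoint genes, 5 of the 6 tested were lower in STL livers and 1 was higher, with a median difference of -0.20, and none passed the test. The 3 genes of the Mre11-Rad50-Nbn complex were all on the lower side. Of all genes tested, 41.9% were below 0, and among the 5 lower genes Chek1 differed by only -0.017. With normexp background correction the 6 genes divided into 3 higher and 3 lower, with a median of -0.045. Without control 4, STL 5 or STL 8 they divided into 2 higher and 4 lower, and without control 3 the median was -0.13.

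Rad50, the ATPase subunit that tethers broken ends, was at -3.27, -2.88, -3.92 and -3.66 in STL livers, against -2.90, -2.56 and -2.71 in control livers. The STL samples spread more widely, and 3 of the 4 lay below every control sample. Its means were -3.43 ± 0.45 in STL livers (SD, n = 4) and -2.73 ± 0.17 in control livers (SD, n = 3), a difference of -0.71 (SE 0.27, 95% interval -1.32 to -0.10, limma unadjusted p = 0.0277, adjusted p = 0.223). With normexp and its offset of 50, which shrinks the differences of dim probes, it was -0.14.

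Nbn, which brings the complex to Atm, was at 1.63, 1.62, 1.51 and 1.43 in STL livers, against 1.84, 1.82 and 1.67 in control livers. The groups did not overlap, though the highest STL sample and the lowest control sample were only a few hundredths apart. The difference was -0.23 (SE 0.11, 95% interval -0.47 to 0.012, limma adjusted p = 0.280), with means of 1.55 ± 0.093 and 1.78 ± 0.096 in STL and control livers (SD, n = 4 and 3). Mre11a, the nuclease of the complex, ranged from -1.43 to -1.24 in STL livers and from -1.25 to -0.98 in control livers, so the 2 ranges met at their ends.

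Atm, the kinase that the complex activates, ranged from 0.12 to 0.46 in STL livers and from 0.041 to 0.28 in control livers, and the ranges overlapped over most of their length. Of its substrates, the effector kinase Chek2 ranged from -3.56 to -2.74 in STL livers and from -2.96 to -2.40 in control livers. Chek1, which Atr activates at stalled forks, had STL values of -2.99, -1.83, -2.45 and -2.58, against -2.51, -2.63 and -2.19 in control livers. Its control values all lay inside the STL range. Atr itself was well above background on 1 of the 8 arrays, a control array, which leaves its difference undetermined at this signal.

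All 5 homologous recombination genes tested were lower in STL livers, with a median difference of -0.20 and a mean of -0.41, and none passed the test. The share of all genes below 0 was 41.9%. The 5 were not low in every STL sample relative to every control sample: the mean of their levels, each centred on its gene, was -0.26, -0.063, -0.12 and -0.25 in STL livers, against -0.30 in controls 1 and 2, 0.60 in control 3 and 0.39 in control 4. Controls 3 and 4 were thus the high samples, and controls 1 and 2 lay below the 4 STL samples. Without control 3 the median was -0.096, with 4 lower and 1 higher, and without controls 1 and 2 it was -0.43. The count was also 4 lower and 1 higher with normexp and in the fits with all 8 arrays.

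Rad54l, a DNA-translocating motor protein of strand exchange, had the largest lower difference of the 34 genes. It was at -3.40, -3.00, -3.68 and -3.29 in STL livers, against -2.88, -1.63 and -2.20 in control livers. The groups did not overlap, but controls 1 and 2 lay close to STL 6. Its means were -3.34 ± 0.28 in STL livers (SD, n = 4) and -2.24 ± 0.62 in control livers (SD, n = 3), a difference of -1.10 (SE 0.30, 95% interval -1.79 to -0.41, limma unadjusted p = 0.00584, adjusted p = 0.178), or 0.466 of the control level. With normexp and its offset of 50, which shrinks the differences of dim probes, the difference was -0.37. Its 1 probe matches rn4 chromosome 5, positions 136234072 to 136234131 on the plus strand, by the coordinates in the files. In the GRCr8 assembly the Rad54l promoter lies on the minus strand, and why the 2 strands differ was not examined.

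Brca2, a mediator of strand exchange, was at -1.51, -1.44, -1.43 and -1.90 in STL livers, against -1.85, -0.74 and -0.73 in control livers. The 2 high values were controls 3 and 4, and controls 1 and 2 lay among the STL samples. A second Brca2 probe, toward the other end of the transcript, ordered the samples in much the same way, from -3.81 to -3.31 in STL livers, against -3.80, -3.03 and -2.69 in control livers. Brca1, its partner in recombination, was at -0.99, -0.73, -0.47 and -0.71 in STL livers, against -0.99, -0.32 and -0.27 in control livers, again with controls 3 and 4 highest. Xrcc2, which acts in the same pathway, was at -1.78, -1.85, -1.37 and -1.63 in STL livers, against -2.08, -1.12 and -1.51 in control livers. Rad52, an annealing factor, ranged from -1.61 to -1.17 in STL livers and from -1.55 to -1.03 in control livers, and its second probe differed the other way, by 0.089.

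**Figure D2:**
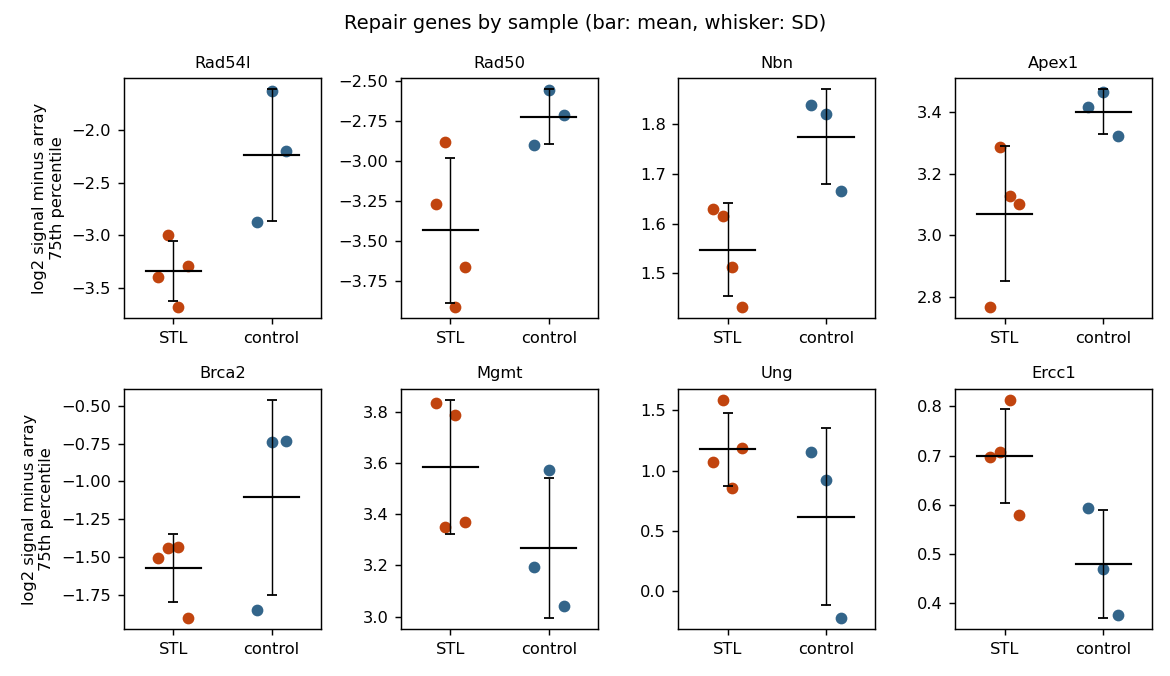
Log2 signal minus the array's 75th percentile of 8 repair genes in each sample, with STL left (4 samples) and control right (3 samples), the bar at the mean and the whisker at 1 SD, each panel with its own vertical axis. The groups do not overlap for Rad54l, Nbn and Apex1, and in Brca2 controls 3 and 4 stand apart from the rest.

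The Fanconi anaemia pathway unhooks DNA crosslinks: a core complex that holds Fanca ubiquitinates Fancd2 and Fanci, which then call in nucleases. Fanca was the gene with the largest difference of the set but it was not called, and 2 of its 3 probes were below background on most arrays. The sequences of the 3 probes, each 60 bases long, are shown because the result rests on 1 of them; they are named by their position in the transcript and printed as the files give them.

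Fanca 685: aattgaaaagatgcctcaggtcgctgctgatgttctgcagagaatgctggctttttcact
Fanca 1077: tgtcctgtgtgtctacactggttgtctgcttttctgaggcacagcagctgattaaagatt
Fanca 4101: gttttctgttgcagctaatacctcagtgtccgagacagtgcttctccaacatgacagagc

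By the coordinates in the files these match the minus strand of rn4 chromosome 19, at 53632848 to 53634062, 53630664 to 53631015 and 53588201 to 53588465, and each span is longer than the probe, so each match is split by a gap in the genome. The middle probe was well above background on 8 of 8 arrays. It was at -2.03, -2.90, -2.63 and -2.09 in STL livers, against -3.70, -4.30 and -4.06 in control livers. Every STL sample lay above every control sample. The means were -2.41 ± 0.42 in STL livers (SD, n = 4) and -4.02 ± 0.31 in control livers (SD, n = 3), a difference of 1.60 (SE 0.27, 95% interval 0.98 to 2.23, limma unadjusted p = 0.000276, adjusted p = 0.155), or 3.04-fold. Without controls 1 and 2 the adjusted p was 0.0485. With normexp and its offset of 50, which shrinks the differences of dim probes, the difference was 0.94.

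The other two Fanca probes were mostly dim. At position 685 the probe was well above background on 1 STL array and on no control array. Its levels were -4.78, -4.58, -6.17 and -5.18 in STL livers, against -5.97, -5.65 and -6.63 in control livers. At position 4101 it was well above background on 1 STL array and 2 control arrays, with levels of -5.49, -4.16, -6.55 and -5.78 in STL livers, against -5.11, -3.57 and -3.42 in control livers. The groups overlapped on both probes, and no direction is read from these levels. With the mean of the 3 probes in place of the brightest, which brings in the dim ones, the Fanca difference was 0.35 (limma adjusted p = 0.565).

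Fancd2 and Fanci, the pair that the core complex modifies, were well above background in control livers alone, on 2 and on 1 of the arrays. Fancd2 was at -6.94, -6.16, -6.58 and -6.85 in STL livers, against -6.84, -4.29 and -4.73 in control livers. Fanci was at -6.69, -5.85, -6.32 and -6.64 in STL livers, against -5.90, -4.04 and -5.11 in control livers. In both genes control 3 was the highest sample. With the STL livers at the detection limit, and part of the control arrays below it too, no fold is given for Fancd2 or Fanci.

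**Figure D3:**
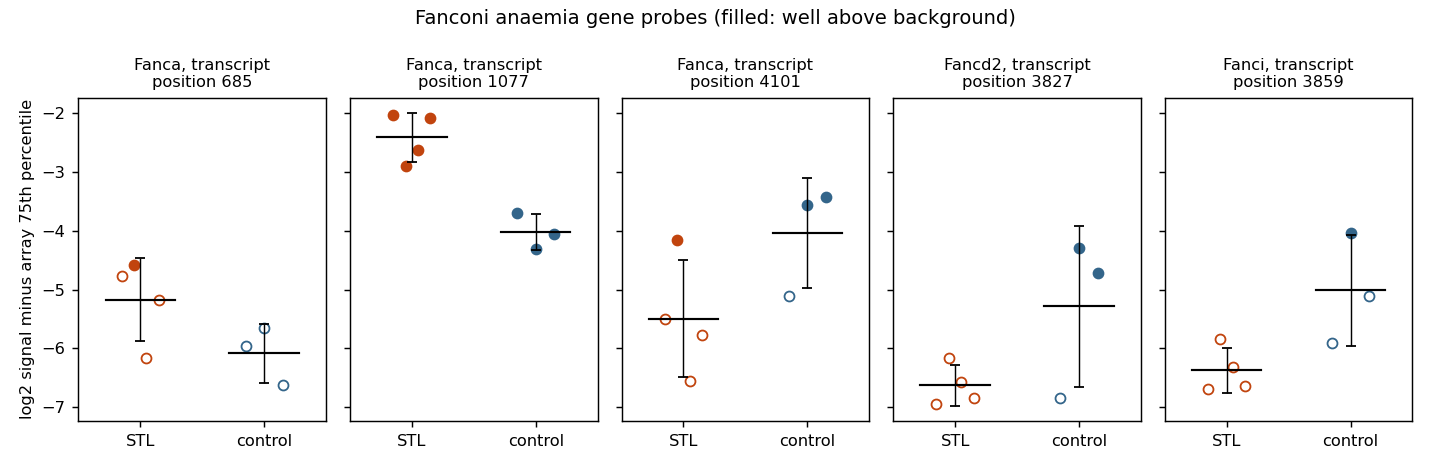
Log2 signal minus the array's 75th percentile for the 3 Fanca probes and the Fancd2 and Fanci probes, STL left and control right, filled where the probe was well above background, with the bar at the mean and the whisker at 1 SD. The Fanca probe at position 1077 is filled in all samples and separates the groups, while the others are mostly open circles.

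A group of 10 of the 39 genes is known from human cells to be transcribed mainly in dividing cells: Brca1, Brca2, Rad54l, Xrcc2, Chek1, Ung, Msh6, Fanca, Fancd2 and Fanci. The choice followed their known link to E2F transcription factors in human cells. The 7 tested were 2 higher and 5 lower in STL livers, with a median of -0.085, and the other 27 repair genes were 13 higher and 14 lower, with a median of -0.083. Without Fanca the median of the first group was -0.14. None of the 7 passed the test. With normexp the 7 were 4 higher and 3 lower (median 0.016), and without controls 1 and 2 the median was -0.34.

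Markers of dividing cells were high in the same samples. Of 23 proliferation markers tested, 22 were lower in STL livers, with a median difference of -1.24. An unadjusted p under 0.05 was met by 17, or 73.9%, all lower, against 7.4% of all genes on that side. None passed the adjusted test. With controls 1 and 2 left out 13 did, as did 215 of all genes. The list was chosen with earlier results of these data known. The count with an unadjusted p under 0.05 was 7 without control 3, or 30.4%, against 13.0% of all genes. It was also 7 without control 4 (30.4%, against 13.3%) and 8 with each of the 8 arrays as a sample (34.8%, against 20.6%). The summed signal of the markers relative to the 75th percentile was 23.0, 24.8, 25.6 and 28.8 in STL livers. It was 28.5 in controls 1 and 2, 48.6 in control 3 and 48.9 in control 4. The high samples were thus controls 3 and 4, as for Brca1 and Brca2, and controls 1 and 2 lay within the STL range. Top2a, the topoisomerase that untangles replicated chromosomes, differed by -2.02, Mcm6, a helicase subunit detected on 2 of 4 STL arrays, by -2.04, the spindle motor Kif11 by -1.35 and the cyclin Ccne2 by -1.24 (limma adjusted p = 0.171 to 0.174). Their part in the differences of Rad54l, Brca1, Brca2, Fancd2 and Fanci was not tested. Ung, Chek1 and Fanca did not share the pattern, with control 4 lowest in Ung, STL 6 highest in Chek1 and control 3 lowest in Fanca.

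**Figure D4:**
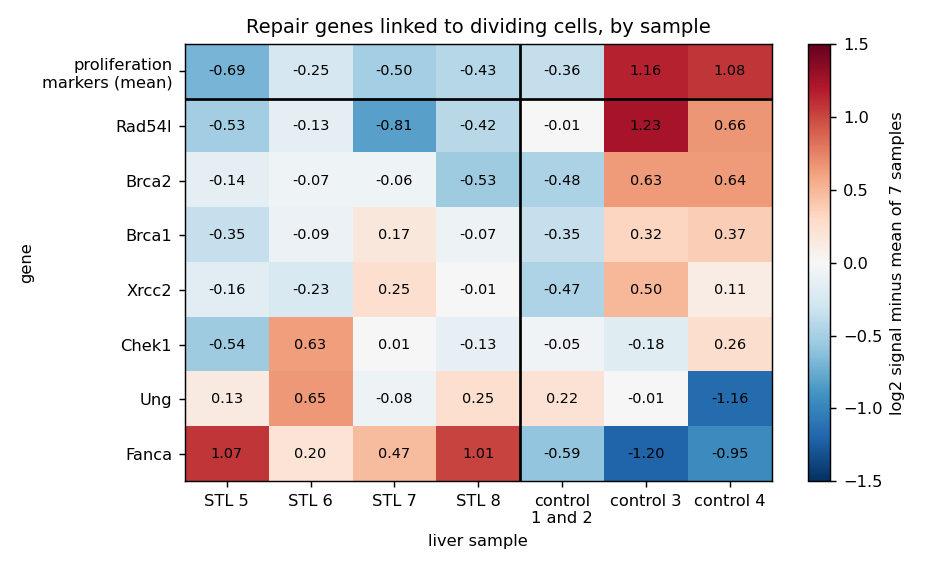
Each cell is the log2 signal of a repair gene linked to dividing cells in 1 sample minus that gene's mean over the 7 samples, with the mean of 23 proliferation markers in the top row, STL samples left and control samples right. Controls 3 and 4 are red in the top row (1.16 and 1.08) and in Rad54l, Brca2 and Brca1, and blue in Fanca.

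Genes of S phase often carry a binding motif of the E2F factors near their start. RefSeq promoters of the GRCr8 assembly, 300 bases reaching from 250 before to 50 after the start, were found for 33 of the 39 genes (34 promoters, Pms2 having 2). The letters searched were TTTCCCGC, TTTCGCGC, TTTGCCGC and TTTGGCGC on both strands. They occurred in 4 of 9 promoters of the genes linked to dividing cells, or 44.4% (Chek1, Fancd2, Msh6 and Ung), and in 2 of 25 promoters of the others, or 8% (Atm and Polk), against 2.14% of 33469 promoters of all genes. The genes linked to dividing cells had been chosen as E2F-linked in human cells, so their share cannot be read as a finding. The repair promoters were also richer in G and C, with a median of 60.8%, against 51.7% over all promoters. CCAAT, another motif of cell cycle promoters, was in 41.2% of the repair promoters and 37.5% of all, and TTTGAA in 11.8% and 18.4%. The promoters of Fancd2 (chr4:148234458-148234757, plus strand) and Chek1 (chr8:44629794-44630093, minus strand) are shown because they hold the same 8 letters, in capitals, at 9 and at -28 from the start. The pair is not alone in this: Atm, of the other genes, held the same letters at -239. Msh6 held their reverse complement, TTTCCCGC, at -5. Fancd2 was well above background on 2 control arrays alone, so its signal by sample is not set against that of Chek1.

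Fancd2 promoter: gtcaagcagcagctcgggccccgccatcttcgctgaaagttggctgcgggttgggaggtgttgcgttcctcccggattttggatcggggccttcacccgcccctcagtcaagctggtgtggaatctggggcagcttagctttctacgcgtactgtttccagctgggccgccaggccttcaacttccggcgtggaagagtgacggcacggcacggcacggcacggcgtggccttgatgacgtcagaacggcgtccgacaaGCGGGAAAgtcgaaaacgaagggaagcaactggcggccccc
Chek1 promoter: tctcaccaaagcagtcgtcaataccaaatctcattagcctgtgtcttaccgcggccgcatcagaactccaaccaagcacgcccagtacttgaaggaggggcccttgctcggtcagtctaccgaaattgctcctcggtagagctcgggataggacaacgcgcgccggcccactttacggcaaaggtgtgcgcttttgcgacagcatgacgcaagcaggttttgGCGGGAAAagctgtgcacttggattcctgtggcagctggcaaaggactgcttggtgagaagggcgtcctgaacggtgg

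End joining, the route that rejoins breaks in resting cells, had 3 genes higher and 1 lower in STL livers, with a median of 0.042, and none passed the test. All 4 intervals lay within 2-fold. The side was not stable: it was 1 higher and 3 lower without controls 1 and 2 (median -0.017), and 2 and 2 without STL 5 (-0.016), without STL 7 (-0.0021) or with median scaling (-0.0030). Xrcc6 and Xrcc5 encode Ku70 and Ku80, the ring that slides onto broken ends. Xrcc6 was at 3.06, 3.20, 3.12 and 3.07 in STL livers, against 2.87, 2.74 and 3.08 in control livers. The STL values were close together, and control 4 lay inside their range. The difference was 0.22 (SE 0.11, 95% interval -0.034 to 0.47, limma adjusted p = 0.310), with means of 3.11 ± 0.066 and 2.89 ± 0.17 in STL and control livers (SD, n = 4 and 3), and 0.14 without control 3. A second Xrcc6 probe differed by 0.21.

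Xrcc5 ranged from 2.63 to 2.96 in STL livers and from 2.50 to 3.03 in control livers, and a second probe with the same sequence ranged from 2.60 to 2.87 and from 2.42 to 2.89. Xrcc4, the scaffold of the ligation step, ranged from -2.13 to -1.18 in STL livers and from -1.68 to -1.37 in control livers. Another Xrcc4 probe above background lay on the other side, by 0.23. Lig4, the ligase that Xrcc4 binds, ranged from -2.47 to -1.94 in STL livers, around control values of -2.20, -2.19 and -2.19.

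Base excision and single-strand break repair had 4 genes higher and 5 lower in STL livers, with a median of -0.10 (-0.17 without STL 5 and -0.046 without STL 6), and none of the 9 passed the test. Apex1, the endonuclease that cuts the strand where a damaged base has been removed, was at 2.77, 3.29, 3.13 and 3.10 in STL livers, against 3.42, 3.46 and 3.32 in control livers. The groups did not overlap, with STL 6 close to control 4 and STL 5 the lowest. The means were 3.07 ± 0.22 in STL livers (SD, n = 4) and 3.40 ± 0.073 in control livers (SD, n = 3), a difference of -0.33 (SE 0.13, 95% interval -0.64 to -0.026, limma unadjusted p = 0.0368, adjusted p = 0.242), or 0.795 of the control level.

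Parp1 and Parp2 make the poly(ADP-ribose) chains that mark a nick, and both were on the lower side. Parp1, read from 10 spots per array, was at 3.45, 3.79, 3.76 and 3.53 in STL livers, against 3.75, 3.82 and 4.18 in control livers. Its highest sample was control 4, without which the difference of -0.28 (SE 0.14, limma adjusted p = 0.313) was -0.15. Parp2 was at 0.098, 0.33, 0.30 and 0.089 in STL livers, against 0.42, 0.63 and 0.29 in control livers, a difference of -0.24 (SE 0.13, limma adjusted p = 0.327) and of -0.15 without control 3. In both genes 2 of the 4 STL samples lay below every control sample.

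Ung, which removes uracil from DNA, was at 1.07, 1.59, 0.86 and 1.19 in STL livers, against 1.16, 0.93 and -0.22 in control livers. Control 4 alone lay far below the other samples. The difference of 0.56 (SE 0.32, 95% interval -0.17 to 1.28, limma adjusted p = 0.356) was 0.14 without control 4. The oxidised-guanine glycosylase Ogg1 ranged from -0.98 to -0.60 in STL livers and from -0.98 to -0.50 in control livers. Mutyh, which removes adenine paired with oxidised guanine, ranged from 1.21 to 1.75 in STL livers and from 1.19 to 1.43 in control livers. A second Mutyh probe, shifted by 1 base, ranged from 1.05 to 1.66 in STL livers and from 1.10 to 1.24 in control livers.

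The gap-filling polymerase Polb ranged from -1.94 to -1.42 in STL livers and from -1.54 to -1.43 in control livers. Xrcc1, the scaffold of single-strand break repair, ranged from 1.86 to 2.22 in STL livers and from 1.97 to 2.22 in control livers. Lig3, its ligase partner, ranged from 1.98 to 2.18 in STL livers and from 1.64 to 2.03 in control livers, and its 4 probes were all on the higher side, by 0.12 to 0.23. Control 4 was the lowest of the 7 samples on each of the 4 Lig3 probes.

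In mismatch repair, Msh3 and Pms2 were both on the lower side and neither passed the test. They lay on opposite sides without control 3, control 4, STL 5 or STL 7, and with 8 arrays. Msh3, which recognises loops left by slippage, ranged from 1.15 to 1.85 in STL livers and from 1.06 to 1.88 in control livers, so the control range covered that of the STL samples. Pms2, which nicks the strand that holds the mismatch, was at -1.504, -1.503, -1.81 and -1.75 in STL livers, against -1.48, -1.52 and -1.58 in control livers. STL 7 and STL 8 lay below all controls, and the difference was -0.12 (SE 0.14, 95% interval -0.44 to 0.21, limma adjusted p = 0.667), with -0.060 without STL 7 and -0.0049 with normexp.

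Nucleotide excision repair had 4 genes higher and 1 lower in STL livers, with a median of 0.15 and all 5 intervals within 2-fold, and none passed the test. Of the 4 higher genes, Xpa differed by only 0.0014. With median scaling, quantile normalization or normexp the count was 3 higher and 2 lower. It was the same without control 3, without STL 6 and with each of the 8 arrays as a sample. The median was 0.071 without STL 5 and 0.065 without control 4. The 2 damage recognition genes lay on opposite sides. Xpc, which senses distorted DNA throughout the genome, was at 0.033, 0.069, 0.42 and 0.091 in STL livers, against 0.50, 0.53 and 0.22 in control livers, a difference of -0.27 (SE 0.14, 95% interval -0.59 to 0.055, limma adjusted p = 0.328). STL 7 alone reached the range of the controls. Ddb2, which finds ultraviolet lesions for Xpc and is a p53 target in human cells, was at 0.96, 0.47, 1.09 and 0.59 in STL livers, against 0.53, 0.66 and 0.15 in control livers. Its difference was 0.33 (SE 0.19, 95% interval -0.10 to 0.76, limma adjusted p = 0.360), and 0.18 without control 4.

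Ercc1, a subunit of the nuclease that cuts on the 5′ side of the lesion, was at 0.70, 0.71, 0.81 and 0.58 in STL livers, against 0.59, 0.47 and 0.38 in control livers. In 3 of the 4 STL samples it was above every control sample, and the difference was 0.22 (SE 0.11, 95% interval -0.035 to 0.47, limma adjusted p = 0.310). Xpa, which verifies the lesion, ranged from 1.10 to 1.45 in STL livers and from 1.16 to 1.31 in control livers. Ercc2, a helicase of the same pathway and of transcription factor TFIIH, ranged from -0.15 to 0.31 in STL livers and from -0.23 to 0.12 in control livers.

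Mgmt, which takes alkyl groups off guanine and is used up in doing so, was at 3.84, 3.35, 3.79 and 3.37 in STL livers, against 3.19, 3.57 and 3.04 in control livers. STL 5 and STL 7 lay above every control sample and the other two STL samples lay below control 3. The difference was 0.32 (SE 0.18, 95% interval -0.088 to 0.72, limma adjusted p = 0.351), and 0.20 without control 4. Polk, a polymerase that copies past bulky adducts, was at 0.82, 0.62, 0.33 and 0.59 in STL livers, against 0.47, 0.26 and 0.27 in control livers. All but STL 7 lay above every control sample, with a difference of 0.26 (SE 0.14, 95% interval -0.056 to 0.58, limma adjusted p = 0.330).

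A second list of 72 repair genes outside the 39 had 61 tested, of which 26 were higher and 35 lower in STL livers, with a median of -0.057. None passed the adjusted test (4 did with controls 1 and 2 left out, as did 215 of all genes). An unadjusted p under 0.05 was met by 14, 5 on the higher and 9 on the lower side, or 23%, against the 19% of all genes. Without control 3 there were 6, or 9.84%, against 13.0% of all genes, and 31 were higher and 30 lower, with a median of 0.016. On the lower side Bard1, the partner of Brca1, was at -5.93, -5.07, -6.51 and -4.82 in STL livers, against -4.58, -2.05 and -2.35 in control livers, and was well above background on 0 of 4 STL arrays and 4 of 4 control arrays. It passed the filter through the control livers alone, so its place among the 9 lends no support. Exo1, an exonuclease of recombination and mismatch repair, was at -3.64, -3.17, -3.18 and -3.39 in STL livers, against -2.92, -1.84 and -2.08 in control livers (limma adjusted p = 0.174). In Exo1 controls 3 and 4 were the high samples, as in Brca1 and Brca2.

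On the higher side Xrcc3, a recombination factor, was at 1.57, 1.49, 1.77 and 1.61 in STL livers, against 1.34, 1.00 and 0.89 in control livers (limma adjusted p = 0.172). Alkbh2, an oxidative demethylase of alkylated bases, was at 2.80, 2.92, 2.94 and 3.08 in STL livers, against 1.89, 2.62 and 2.37 in control livers (limma adjusted p = 0.174). All STL samples lay above all control samples in both. Of 14 targets of p53, the transcription factor that damage signalling activates, 8 were higher and 6 lower, with a median of 0.072 (-0.040 without STL 7). An unadjusted p under 0.05 was met by 1 on each side, together 14.3%, against 19% of all genes. None passed the adjusted test.

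Markers of liver cell types also differed between the samples, given here as signal summed over a list, relative to the 75th percentile. The 7 cholangiocyte markers had a median difference of -1.04 (-0.59 without control 4 and -0.56 with normexp), with 6 lower. That median is the value of a marker above background on only 2 of 4 STL arrays. The 7 summed to 2.37 to 5.83 in STL livers, against 5.06 to 11.5 in control livers, with control 4 highest. The 8 stellate cell markers had a median of -0.40 (-0.25 without control 4), with 7 lower, and summed to 29.1 to 42.5 in STL livers and 45.8 to 93.6 in control livers. The 4 of 5 granulocyte and mast cell markers tested were all lower, with a median of -1.498 (-0.80 for the 3 above background on all arrays, -0.56 with normexp), and summed to 0.514 to 1.32 in STL livers and 1.34 to 2.31 in control livers. Of the 9 hepatocyte markers 8 were higher, with a median of 0.35 (0.18 without control 4, and -0.00050 with quantile normalization, 4 higher and 5 lower), and summed to 3262 to 4970 in STL livers and 2293 to 3329 in control livers. The medians of the macrophage, lymphocyte and endothelial markers were -0.14, 0.28 and 0.15, with 2 of 8, 6 of 6 and 3 of 5 tested on the higher side. Leaving out 1 sample, these medians ranged from -0.25 to -0.071, from 0.13 to 0.37 and from 0.099 to 0.19. No marker of these lists passed the adjusted test, though 1 granulocyte and mast cell marker did with controls 1 and 2 left out, as did 215 of all genes. In the lymphocyte list 2 markers and in the granulocyte and mast cell list 1 were too dim for the test, and the part of these cell types in the differences of Apex1, Nbn, Rad50, Rad54l and Fanca was not tested.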

How the data were processed

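Liver RNA of 8 labelled rats was hybridised to 1-colour arrays, per the labels' protocols. The deposited scanner files hold the intensity of each spot, made with Agilent Feature Extraction (version 11.5.1.1 per the file headers, 10.7 per the submitters' processing notes). The authors' series table, also deposited, is linear intensity, the processed signal times a constant that differs by array. These constants brought the 75th percentiles of the columns to 1194 to 1223, with no centring on the median (column medians 42.1 to 48.9). Of the 8 columns of the series table, 6 matched another rat of the same group, which leaves the numbering of rats inside a group open to doubt. All arrays were on 1 slide with 1 scan time.

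Of 62976 spots per array, 58717 were not controls and gave 45598 probes. Spots called non-uniform or population outliers were left out. The processed signal was averaged over a probe's spots, log2 was taken, and the array's 75th percentile was subtracted. A probe counted as above background where at least 0.5 of its spots did. Names came from RefSeq accessions (23724 probes), symbols (5164) or synonyms (353), and 16357 probes kept the files' names. The brightest probe stood for a gene, and a gene was tested if above background on 4 or more arrays of 8.

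The test was limma 3.58.1 under R 4.3.3 (lmFit, eBayes with trend, two-sided, Benjamini-Hochberg, threshold 0.05). Controls 1 and 2 were averaged because their ratio to the spot noise was under 1.5, a limit set with the pair known. For a probe below background throughout a group, no fold is given. Full statistics are given for the 14 genes with the smallest unadjusted p and the lowest of each role, and at most 4 genes are named of the other repair genes and of the proliferation markers. Genes of the cell type lists are named as levels only. The 39 genes, the roles and the other lists were chosen with earlier results of these data known. Python 3.11.15, pandas 2.3.3 and matplotlib 3.10.9 were used for tables and figures. Probe positions are those of the files (rn4), and promoters are from RefSeq (GRCr8). The number of arrays limits the precision.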

Additional observations from a re-analysis of the deposited data

Results flagged for a closer look

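In 3 of the 34 repair genes tested, 1 of the 4 STL samples lay far from the other three by Dixon's criterion, which chance meets in about 1 in 20 groups. The 3 control samples were too few for it. Brca2 in STL 8 was lowest at -1.90 (gap over range 0.839), with the others between -1.51 and -1.43. Ogg1 in STL 5 was lowest at -0.98 (0.881), with the others between -0.64 and -0.60. Xpc in STL 7 was highest at 0.42 (0.850), with the others between 0.033 and 0.091.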

How the results depend on the processing

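The number of all genes past the adjusted threshold was 1, against 21 with each of the 8 arrays as a sample, 215 with controls 1 and 2 both left out, 38 with array weights and 10 from the authors' series table, and 1 to 45 when leaving out 1 sample (3 without control 3 and 45 without STL 6). Of the repair genes 0 passed, and 1 (Fanca, adjusted p 0.0485) with controls 1 and 2 left out. The number with an unadjusted p under 0.05 was 4 of 34, where 19.0% of all genes were under it. It was 7 with 8 arrays (20.6% of all genes) and 7 from the series table (20.6%). With no filter on dim probes it was 7 of 37 (13.2% of all genes), and with the slide column as a block 8 of 34 (17.9%). With array weights it was 10 (25.3% of all genes). Leaving out 1 sample gave 2 to 7, with 7 without control 4 (13.3% of all genes) and 2 without STL 8 (12.7%). The median difference of the repair genes was -0.084. It was -0.0086 with 8 arrays, -0.0086 with the slide column as a block, -0.0093 from the series table and 0.00034 with normexp (median of all genes 0.12). Leaving out 1 sample gave medians of -0.117 to -0.049. The causes were not tested. For the 15 genes with full statistics, 0 of 255 values over 17 alternatives reversed direction and 1 changed side of the threshold. All 15 were above the threshold in the main fit and the alternatives reuse the same data, so the count does not show stability. Sizes moved: 0.35 to 1.775 for Fanca, -0.89 to -0.14 for Rad50 and -0.16 to -0.0049 for Pms2. Over the 17 alternatives the limma adjusted p ranged from 0.0485 to 0.565 for Fanca, 0.0601 to 0.363 for Rad54l and 0.114 to 0.439 for Rad50. It ranged from 0.128 to 0.455 for Apex1 and from 0.126 to 0.509 for Nbn. With array weights the difference was 0.11 for Mgmt, 0.37 for Ung and 0.15 for Ddb2. Signal over background limits Atr, Fancd2, Fanci and the outer Fanca probes. No pairing by rat number can be made, since the numbers (1 to 4 and 5 to 8) are not shared between the groups. The paired fit that was run has the slide column, with 1 STL and 1 control array each, as a block, and its values are given above. This fit and that of the series table used all 8 arrays, so both counted controls 1 and 2 as separate samples.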
